A study of Mus musculus with 12 samples.

Results

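The comparison described here sets 4T1 mammary tumour cells passaged through mouse lung against the 4T1 cells they are compared with in this study. 4T1 is an established mouse mammary carcinoma line that spreads to the lung when grown in mice. The group called lung3 (3 libraries) had been taken through the lung 3 times in vivo, and its lung metastatic activity is labelled high. The group called wt (3 libraries) had no in vivo passaging, and its activity is labelled normal. Neither group was transfected, so both lack the plasmids carried by the other lines of the study, which are mock-transfected cells and cells overexpressing Myb (MYBup). These 6 libraries were chosen by their labels from 12 in all, and all 11291 genes that passed a filter on low counts were compared, out of 22880 features in the table. The study asked which genes change in cells with altered capacity to colonise the lung. Nothing in the labels tells if each library is its own culture, if lung3 is a single clone, or how the cells were grown after recovery from the lung. A p-value here thus covers no more than library-to-library spread, and that spread could be purely technical.

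Cells that have been recovered from a target organ and expanded again are a common way to enrich for variants that colonise that organ. Programmes often studied in such lines include chemokines, small secreted proteins that attract leukocytes through receptors on those cells, and the NF-kB pathway, in which cytokine or microbial signals release transcription factors from inhibitor proteins so that they enter the nucleus and switch on chemokine, cytokine and inhibitor genes. Other such programmes are the keratin and junction genes of epithelia, the Wnt, Notch and TGF-beta signalling pathways, and the proteases and matrix proteins that cells use to move through tissue.

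Libraries held 20617046 to 24745660 counts in wt and 8912989 to 14689339 in lung3, so the lung3 values rest on fewer counts. Levels are given as CPM, counts divided by library size and scaled for composition, and changes as log2 fold changes of lung3 over wt with their standard errors (SE). A gene is called when its adjusted p from edgeR's quasi-likelihood test, corrected over all tested genes by the Benjamini-Hochberg method, is below 0.05. Replicates of a group differed from each other by 6.33 to 16.8 in chi-square per gene, so no 2 libraries were repeats within sampling noise. Of the markers of other cell types a lung isolate could hold, 8 of 15 lung epithelium markers had no count in any of the 6 libraries, among them the surfactant genes Sftpa1, Sftpb, Sftpc and Sftpd, and the 15 summed to 0.33 to 1.2 CPM in wt and 0.693 to 1.39 CPM in lung3. Of 18 leukocyte markers, 7 had no count, including Adgre1, Cd3e and Tyrobp. The summed leukocyte level was 60.7 to 149 CPM in wt and 92.5 to 163 CPM in lung3, and without Lcp1 and Cd74 it was 0.364 to 0.496 CPM and 0.364 to 1.27 CPM. Lcp1 was at 58.4 to 144 CPM in wt and 87.2 to 149 CPM in lung3, and Cd74 at 2.0 to 4.36 CPM and 4.95 to 13.5 CPM. Neither was called (adjusted p = 0.477 and 0.0631), but with the replicate number as a block both were higher (0.00545 and 2.69e-05) and the fibroblast marker Pdgfra was lower (0.00983). Their part in the results below was not tested. Endothelial markers summed to 8.25 to 10.5 CPM in wt and 8.78 to 10.8 CPM in lung3, with Kdr, Cldn5, Erg, Robo4 and Sox18 at 0, and fibroblast markers to 22.7 to 31.0 CPM and 16.3 to 22.6 CPM. Markers of mammary epithelium and of the line summed to 2850 to 3270 CPM in wt and 2720 to 3150 CPM in lung3, with Krt5 at 0. In bulk RNA, a change in the share of cells that express a gene and a change in the level per cell cannot be told apart.

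The test called 605 genes, which is 5.36% of those tested. Of these, 329 rose in lung3 (2.91%) and 276 fell (2.44%), with median log2 changes of 0.623 and -0.578, against a median of 0.001 over all tested genes. A change of at least 2-fold was seen for 164 called genes (1.45%), 104 higher and 60 lower. The CPM of the groups did not overlap for 603 of the 605 called genes, which is to be read beside 27.4% of all tested genes. With the replicate number as a block in a fit of the 6 libraries, 1985 genes were called (17.9% of 11085), 961 higher (8.67%) and 1024 lower (9.24%), and 598 of the 605 calls were shared. The same block inside the fit of 12 libraries called 805 of 11291 genes, 410 higher and 395 lower. Below, the block means the fit of 6 libraries. Every count of called list members below is to be read beside the shares over all genes. They are 2.91% higher and 2.44% lower, or 8.67% and 9.24% with the block. The number of calls fell to 237 without wt replicate 1, 268 without wt replicate 2 and 294 without lung3 replicate 2.

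**Figure D1:**
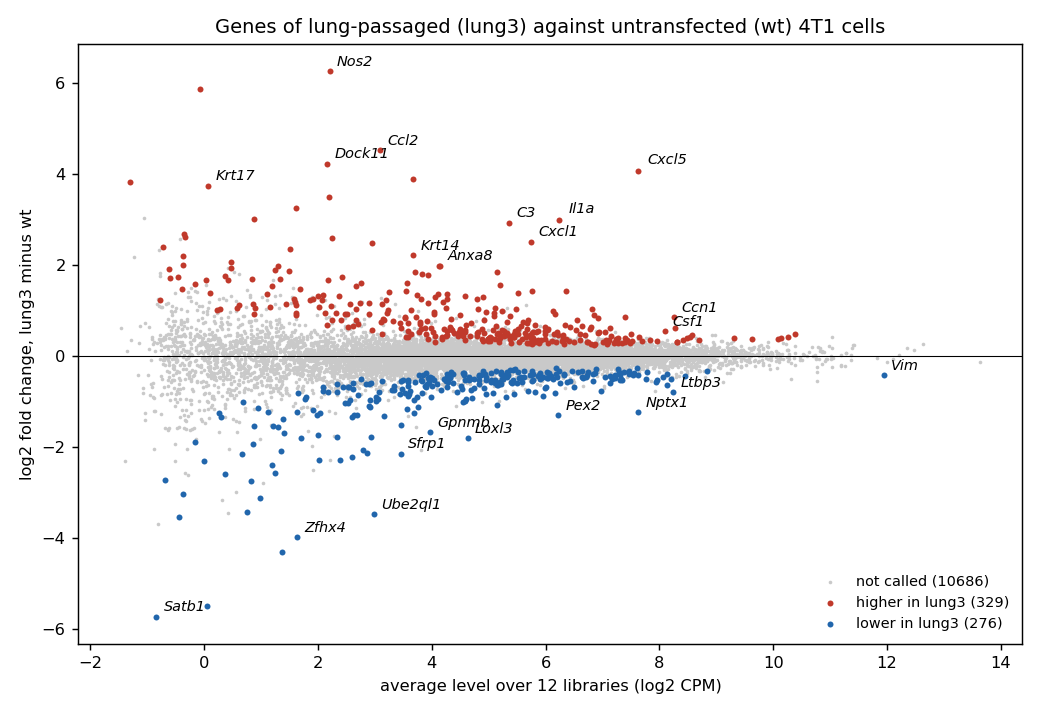
Each point is a tested gene, with its average log2 CPM over 12 libraries on the x axis and its log2 fold change (lung3 minus wt) on the y axis; red points are the 329 genes called higher and blue points the 276 called lower. The chemokine genes Ccl2, Cxcl5 and Cxcl1 lie far above 0, and Zfhx4, Ube2ql1 and Sfrp1 lie below it.

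Upstream stretches are shown first for 5 genes that rose, since kB sites are the DNA elements NF-kB binds. These 5 were chosen because their promoters hold a match. The called NF-kB list gene Tnip1 also held the kB motif, the called Zc3h12a, Ikbke and Birc3 held none in this window, and Ccl2, Cxcl5 and Nfkbiz had no promoter entry. The sequences below come from RefSeq promoters of GRCm38.p6, and capitals mark matches to the kB motif, or for Il1a to the AP-1 motif TGACTCA or TGAGTCA, searched on both strands in the 250 bases before the start. Cxcl1 lies at chr5:90891125-90891244 (plus strand), Ccl20 at chr1:83116646-83116765 (plus), Nfkbia at chr12:55492648-55492767 (minus), Cxcl10 at chr5:92348890-92349069 (minus) and Il1a at chr2:129309973-129310092 (minus).
Cxcl1: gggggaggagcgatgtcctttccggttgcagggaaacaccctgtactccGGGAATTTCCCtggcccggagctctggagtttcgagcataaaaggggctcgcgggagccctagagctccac
Ccl20: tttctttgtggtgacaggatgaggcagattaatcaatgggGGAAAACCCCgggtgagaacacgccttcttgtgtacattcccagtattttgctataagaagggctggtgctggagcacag
Nfkbia: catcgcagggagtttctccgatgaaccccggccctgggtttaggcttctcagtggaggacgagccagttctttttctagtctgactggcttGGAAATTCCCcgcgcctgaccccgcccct
Cxcl10: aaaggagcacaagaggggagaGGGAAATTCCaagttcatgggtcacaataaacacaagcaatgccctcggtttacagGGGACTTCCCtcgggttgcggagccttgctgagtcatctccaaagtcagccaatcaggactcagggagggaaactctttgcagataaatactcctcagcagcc
Il1a: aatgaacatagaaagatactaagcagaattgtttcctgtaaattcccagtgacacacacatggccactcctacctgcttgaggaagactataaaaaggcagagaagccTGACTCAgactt
The kB motif was present in 3.9% of all 32851 promoters in a window of the same length, and the AP-1 motif in 4.46%. These matches describe letters in a window, and no binding was measured.

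Among chemokines, the secreted attractants of leukocytes, 6 of 10 tested genes rose and none fell, with a median log2 change of 1.09, beside 5.36% called and a median of 0.001 over all genes. Leaving out single libraries left 5 to 7 rises, and leaving out both replicates numbered 3 left 6. Ccl2, which attracts monocytes, was at 0.818, 1.03 and 2.16 CPM in the wt libraries and at 46.5, 37.3 and 8.46 CPM in lung3 (log2 change 4.53, SE 0.63, adjusted p = 0.00143). Cxcl5, a neutrophil attractant, was at 40.2, 30.9 and 38.7 CPM in wt and at 770, 878 and 183 CPM in lung3 (4.06, SE 0.59, adjusted p = 0.00176). Every lung3 library lay above every wt library for both genes, and lung3 replicate 3 was the lowest of its group. Cxcl1, another neutrophil attractant, was at 33.5, 23.4 and 23.4 CPM in wt and 193, 189 and 78.5 CPM in lung3 (2.52, SE 0.33, adjusted p = 0.000937). Ccl20, which attracts cells that carry Ccr6, was at 1.59, 1.20 and 1.68 CPM in wt and 30.6, 14 and 5.48 CPM in lung3 (3.49, SE 0.54), and its log2 change was 2.67 without lung3 replicate 1. Cxcl16, a transmembrane chemokine, rose from 37.3 to 54.2 CPM in wt to 67.8 to 99.2 CPM in lung3 (log2 change 1.04). Cxcl10, an interferon-induced chemokine, rose by 1.14, and this call was lost without either of wt replicates 1 and 2 or lung3 replicates 1 and 3, with adjusted p up to 0.121. Ccl5 was not called (log2 change 1.03, adjusted p = 0.162), but was with the block (adjusted p = 0.00522). With the block 8 of 9 chemokines rose, Cx3cl1 included (0.275, adjusted p = 0.0453). Per kilobase of exon, Cxcl5 had the highest level of these genes in lung3, at 328 CPM per kb against 81.8 for Cxcl1. Of the receptors, Ccr2, the receptor of Ccl2, and Cxcr4 had no count in the 6 libraries, and Cxcr2, the receptor of Cxcl1 and Cxcl5, had 2 counts in wt and 1 in lung3. Cxcr3 fell by 1.29, from 2.30 to 3.39 CPM to 0.832 to 1.60 CPM, and lost its call without any library other than wt replicate 3 (adjusted p 0.0563 to 0.176).

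**Figure D2:**
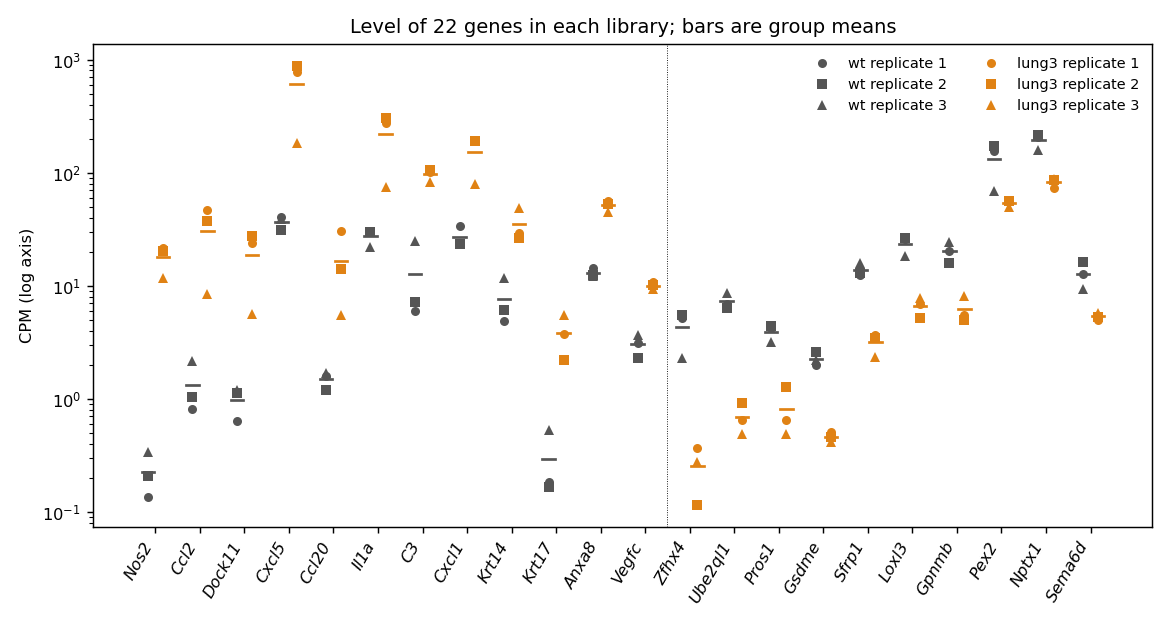
CPM on a log axis of 22 genes in each of the 6 libraries (grey wt, orange lung3; circle, square and triangle are replicates 1, 2 and 3) with group means as bars; genes left of the dotted line rose and those right of it fell. Ccl2, Cxcl5, Ccl20, Il1a and Dock11 sit lowest in lung3 replicate 3 within lung3, while Krt14 and Krt17 sit highest there.

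Cytokines and their regulators moved in part with the chemokines. Il1a, the interleukin 1 form that acts on neighbouring cells through the receptor Il1r1, was at 30.3, 29.6 and 22.1 CPM in wt and at 273, 306 and 74.8 CPM in lung3 (log2 change 2.99, SE 0.57, adjusted p = 0.00875). The lung3 libraries lay above the wt libraries, with replicate 3 nearest to them. Il1r1 was at 12.4 to 14.2 CPM in wt and 13.3 to 15.7 CPM in lung3 (log2 change 0.13, adjusted p = 0.61), and Il1b had 10 counts in wt and 5 in lung3. Of 10 tested interleukin 1 family genes, 2 rose and none fell. Irak2, a kinase of the receptor complex, was lost without wt replicate 1 or 2 or lung3 replicate 2 or 3 (adjusted p 0.0502 to 0.0953), leaving 1. Csf1, the macrophage growth factor, rose from 211 to 243 CPM in wt to 325 to 343 CPM in lung3 (0.55, SE 0.07, adjusted p = 0.00066). Csf3, the granulocyte growth factor, was at 26.4, 19.6 and 24.1 CPM in wt and at 89.4, 77.1 and 41.1 CPM in lung3 (1.56, SE 0.31), and its call was lost without wt replicate 2 (adjusted p = 0.0545). Of 19 tested colony-stimulating factor and interleukin 6 family genes, 3 rose and Clcf1 fell by 0.53 on the log2 scale. Without wt replicate 2, 1 of the 19 rose. With the block 5 rose, among them Csf2 (1.94, adjusted p = 0.00578).

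In the NF-kB list, some feedback inhibitors rose, while others, such as Nfkbib and Tnip2, were not called. No subunit gene of the factor was called without the block. Of 27 tested genes of the list, 6 rose and none fell (22.2%, against 5.36% of all genes), with a median of 0.17. Without wt replicate 2, 1 of the 27 rose, and without both replicates numbered 3, 7 rose. Nfkbia, which holds NF-kB in the cytoplasm, was at 47.4, 36.5 and 36.3 CPM in wt and at 79.9, 63.2 and 54.8 CPM in lung3 (log2 change 0.72, SE 0.14). Zc3h12a, an RNase that degrades cytokine transcripts, was at 12.4, 8.51 and 8.44 CPM in wt and at 39.3, 39.5 and 22.9 CPM in lung3 (1.79, SE 0.35). Tnip1, a partner of the ubiquitin editor Tnfaip3, rose by 0.61 (SE 0.12, adjusted p = 0.0094). The calls of Nfkbia and Zc3h12a were lost without wt replicate 2 (adjusted p = 0.0545 and 0.0541). Nfkbiz (1.06) and the kinase gene Ikbke (1.36) were also called, but Nfkbiz lost its call without any library other than lung3 replicate 3 (adjusted p 0.0732 to 0.131) and Ikbke when wt replicate 2 or lung3 replicate 1 or 2 was omitted (0.0545 to 0.0615). Birc3 rose by 0.54 and was lost without wt replicate 1 or 2 (adjusted p = 0.0585 and 0.0644). The subunit genes Nfkb1 (log2 change 0.21, adjusted p = 0.103) and Rela (0.07, adjusted p = 0.729) were not called. With the block, 11 of the 27 rose, where 8.67% of all genes rose. These included the subunit genes Nfkb1 (0.207, adjusted p = 0.0467) and Rel (0.38, adjusted p = 0.0074) and the inhibitor gene Tnfaip3 (0.275, adjusted p = 0.00688).

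Acute-phase and innate defence genes gave 4 rises among 7 tested members, with a median log2 change of 1.99, and 4 to 5 rises when single libraries were left out. Nos2, which makes nitric oxide, was at 0.136, 0.207 and 0.336 CPM in wt and at 21.5, 20.2 and 11.6 CPM in lung3. Its 15 counts in wt against 638 in lung3 gave a ratio of 77.5 (95% interval 46.6 to 139, counting error only), the log2 change was 6.26 (SE 0.55) and the adjusted p was 5.23e-05. C3, the central complement component, was at 5.95, 7.10 and 25.1 CPM in wt and at 102, 105 and 83.1 CPM in lung3 (2.93, SE 0.5), and its log2 change was 3.88 without wt replicate 3. The wt libraries stood below the lung3 libraries for both genes, with wt replicate 3 nearest. Lcn2, an iron-siderophore carrier, rose by 3.89 (SE 0.73, adjusted p = 0.00795, but 0.0556 in limma's voom test), or by 4.54 without wt replicate 3. Slpi, a protease inhibitor of secretions, rose from 7.06 to 10.4 CPM to 31.0 to 36.7 CPM (1.99, SE 0.35). With the block 5 of 18 type I interferon genes rose, where 8.67% of all genes rose. Without it 1 of the 18 was called, as a rise (5.56%, near the 5.36% of all genes). That gene, Rsad2, was lost when wt replicate 1 or 2 or lung3 replicate 3 was omitted (adjusted p 0.151 to 0.275). In the prostaglandin list, 2 of 11 rose, and 1 without wt replicate 1 or 3 or lung3 replicate 2 or 3. Ptges, a prostaglandin E synthase, was the gene lost (adjusted p 0.108 to 0.175), and it was also lost in the fit of 6 libraries, in voom and without both replicates numbered 3 (0.322). Ptgs1, a cyclooxygenase, rose from 8.36 to 11.1 CPM to 17.3 to 27.1 CPM (1.17, adjusted p = 0.00259), while its abundant paralog Ptgs2 was at 488 to 586 CPM in wt and 615 to 896 CPM in lung3 and was not called (0.47, adjusted p = 0.114; called with the block).

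Among epithelial genes, 3 of 11 tested keratins rose and none fell (27.3% called, against 5.36% of all genes). With the block 6 of 9 rose, where 8.67% of all genes rose. Leaving out single libraries left 2 to 4 rises, with 2 without wt replicate 1, wt replicate 2 or lung3 replicate 2. Krt14, the keratin of basal epithelial cells, was at 4.86, 6.15 and 11.8 CPM in wt and at 29.1, 26.2 and 49.0 CPM in lung3 (2.21, SE 0.29, adjusted p = 0.00104). Krt17, a keratin of injured and basal epithelium, was at 0.182, 0.165 and 0.528 CPM in wt and at 3.71, 2.19 and 5.48 CPM in lung3. Both groups held their highest value in replicate 3, and they did not overlap. The Krt17 log2 change was 3.74 (SE 0.4), or 4.44 without wt replicate 3. The luminal keratins Krt8 and Krt18, the most abundant per kilobase, were not called: Krt18 was at 554 CPM per kb in wt and 506 in lung3 (log2 change -0.13), and Krt8 at 430 and 378 (-0.18). Of 27 junction genes, 3 rose and Rab25, a vesicle GTPase of epithelia, fell by 1.18. Without wt replicate 1 none of the junction genes rose (3 had done so). With the block 8 of 26 junction genes rose and 5 fell, where 8.67% of all genes rose and 9.24% fell. E-cadherin, Cdh1, was at 443 to 537 CPM in wt and 423 to 524 CPM in lung3 (adjusted p = 0.801), and N-cadherin, Cdh2, had no count. Rab25 lost its call without wt replicate 1 or 2 or lung3 replicate 1 or 2 (adjusted p 0.0899 to 0.115). Among 16 tested epithelial-mesenchymal regulators and mesenchymal markers, S100a4 rose and Vim fell (12.5% called). With the block 2 of 15 rose and 1 fell. S100a4, a mesenchymal marker, rose by 0.425 and lost its call without any library other than lung3 replicate 3. Fn1, another such marker, was called with the block only (0.451, adjusted p = 0.00074). Vim, a mesenchymal filament protein, was at 3331, 3170 and 3386 CPM in wt and at 2438, 2134 and 2814 CPM in lung3 (-0.42, SE 0.1, adjusted p = 0.0254), and its call was lost without any library other than lung3 replicate 3 (0.0534 to 0.0976). Among mammary lineage factors, 4 of 15 fell and 2 rose, and 1 fell without wt replicate 1 or 2. Gata3, a luminal transcription factor, fell from 70.6 to 77.7 CPM to 45.6 to 58.0 CPM (-0.53, SE 0.1, adjusted p = 0.00851). Ehf, an epithelial ETS factor, had 3 counts in wt and 104 in lung3, a ratio of 63.1 with a counting interval of 21.0 to 311, but lung3 replicate 3 was at 0.208 CPM against 3.57 and 6.0 CPM in the others, and the call was lost without wt replicate 1 or 2 or lung3 replicate 1 or 2 (adjusted p 0.0532 to 0.0808).

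Signalling pathways gave more falls than rises in the Wnt list (1 rise and 5 falls of 29, 20.7% called; 4 and 9 of 27 with the block), the Notch list (1 and 3 of 15; 1 and 6 with the block) and the EGF family list (1 and 4 of 19; 2 and 6 with the block). When single libraries were left out, 1 to 4 Wnt genes, 1 to 3 Notch genes and 3 to 4 EGF family genes fell. The count of 1 came without wt replicate 1 for Notch, and without wt replicate 1 or lung3 replicate 1 or 2 for Wnt. Sfrp1, a secreted antagonist of Wnt ligands, was at 12.4, 12.9 and 16 CPM in wt and at 3.64, 3.46 and 2.36 CPM in lung3 (-2.14, SE 0.18, adjusted p = 5.23e-05). Its groups were separated by a wide gap. Wnt7a, a ligand, rose by 0.54 (SE 0.1, adjusted p = 0.00676). Dll1, a Notch ligand, fell from 10.7 to 13.5 CPM to 5.66 to 8.46 CPM (-0.80, SE 0.15). Nrg2, a ligand of ErbB receptors, fell by 1.22 (SE 0.22), and the feedback inhibitors of growth factor signalling Spry2 and Dusp6 fell by 0.54 and 0.53. Egfr, the receptor, was at 5.45, 3.64 and 5.56 CPM in wt and 9.97, 13.4 and 8.53 CPM in lung3 (1.11, SE 0.23), and was lost without wt replicate 2 or lung3 replicate 2 (adjusted p = 0.0657 and 0.0669). In the TGF-beta and BMP list, 1 of 33 rose and 3 fell (12.1% called, where 2.91% of all genes rose and 2.44% fell). Of the latent TGF-beta binding protein family, Ltbp2 rose by 0.63, and Ltbp3 and Ltbp4 fell by 0.78 and 0.81. Bmp1, a protease that processes procollagens, fell by 0.46. Ltbp4 was lost when wt replicate 1 or 2 or lung3 replicate 2 or 3 was omitted (adjusted p 0.07 to 0.142). With the block 7 of 32 rose and 8 fell, where 8.67% of all genes rose and 9.24% fell.

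Targets of YAP and serum response factors gave 5 rises of 24 (20.8%, against 2.91% higher over all genes) and no fall. With the block there were 6 rises and 2 falls, where 8.67% of all genes rose and 9.24% fell. Ccn1, a matricellular protein, was at 302, 318 and 317 CPM in wt and at 589, 617 and 493 CPM in lung3 (0.86, SE 0.08, adjusted p = 7.96e-05). Ccn2, its relative, rose from 123 to 202 CPM to 246 to 303 CPM (0.87, SE 0.15). Edn1, the endothelin precursor, rose by 1.98 (SE 0.27) and F3, tissue factor, by 1.02 (SE 0.13). Yap1 itself was at 232 to 241 CPM in wt and 229 to 240 CPM in lung3 (adjusted p = 0.971). Of the plasminogen activators, Plat rose by 0.73 (adjusted p = 0.00361), while Plau (0.11, adjusted p = 0.735) and the receptor Plaur (-0.22, adjusted p = 0.214; 0.0472 with the block) were not called. The plasminogen and serpin list had 5 rises and 1 fall of 28, and 9 rises and 4 falls with the block. In the metalloproteinase list 4 of 21 rose, and 1 without wt replicate 1, with Adam12 at 23.5 to 36.6 CPM in wt and 53.7 to 60.2 CPM in lung3 (1.04, SE 0.15). Mmp9, a gelatinase, was not called (1.13, adjusted p = 0.0553; called with the block, as 9 rises and 4 falls of 20).

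Hypoxia-response genes gave 6 rises of 26 and no fall (23.1% called, against 5.36% of all genes), with a median of 0.31. Without wt replicate 1 or 2, 3 rose, and without both replicates numbered 3, 8 rose. Car9, a surface carbonic anhydrase, was at 13.2, 13.3 and 31.1 CPM in wt and at 51.2, 46.5 and 57.7 CPM in lung3 (1.44, SE 0.25, adjusted p = 0.00509). P4ha2, a collagen prolyl hydroxylase, rose by 1.05 (SE 0.13) and Ndrg1, a stress-induced gene, by 0.61 (SE 0.08). The groups did not overlap for these 3 genes. Hif1a (0.28, adjusted p = 0.0927, or 0.0108 with the block) and the glucose transporter Slc2a1 (0.13, adjusted p = 0.337) were not called. In the glycolysis list 1 of 25 genes rose and none fell (4%, near the 5.36% of all genes called). With the block 13 of 26 hypoxia genes rose and 1 fell, and 5 of 25 glycolysis genes rose and 1 fell. Over all genes 8.67% rose and 9.24% fell with the block. Vegfc, a lymphatic growth factor, was at 3.14, 2.31 and 3.64 CPM in wt and at 10.7, 10.1 and 9.36 CPM in lung3 (1.73, SE 0.19, adjusted p = 0.000262), while Vegfa was not called (0.24, adjusted p = 0.13). Of the vascular ligand and receptor list, 5 of 23 rose and Angptl2 fell by 0.52 (2 rises without wt replicate 1 or 2, 7 rises and 6 falls of 22 with the block). Kdr and Flt4, receptors of these ligands, had no count.

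Surface and calcium-binding proteins gave 7 rises and 2 falls of 25, and 3 to 5 rises when single libraries were left out. Anxa8, a membrane-binding annexin, was at 14.3, 12.3 and 12.1 CPM in wt and at 55.8, 53 and 44.9 CPM in lung3 (1.99, SE 0.14), with the joint smallest adjusted p of the comparison, 8.93e-06. Ly6e, a lipid-anchored surface protein, rose by 1.86 (SE 0.29). Ly6e belongs to a multigene family, so shared reads could make its value uncertain, which was not tested. Among adhesion receptors 2 of 30 rose (6.67%, near the 5.36% of all genes), and 1 without wt replicate 1 or 2. With the block 6 rose and 8 fell, where 17.9% of all genes were called. Itgb7, an integrin beta chain of leukocytes, was at 1.05, 0.661 and 1.39 CPM in wt and at 5.60, 3.35 and 6.45 CPM in lung3 (2.35, SE 0.33). Axon guidance genes gave no rise and 3 falls of 34, with a median of -0.26, and 1 rise and 12 falls of 32 with the block. Sema6d, a transmembrane semaphorin, fell from 9.35 to 16.2 CPM to 5.02 to 5.75 CPM (-1.25, SE 0.22), and Nptx1, a secreted pentraxin, from 159 to 214 CPM to 73.2 to 88.3 CPM (-1.23, SE 0.21). In the breast-to-lung metastasis signature, which was derived in other cells, 2 of 18 rose and none fell, Cxcl1 and Angptl4. With the block 4 rose and 7 fell. Without wt replicate 1 or 2 or lung3 replicate 2 or 3, 1 rose. Angptl4 had 20 counts in wt and 33 in lung3 and lost its call without any library other than lung3 replicate 1 (adjusted p 0.0735 to 0.142).

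**Figure D3:**
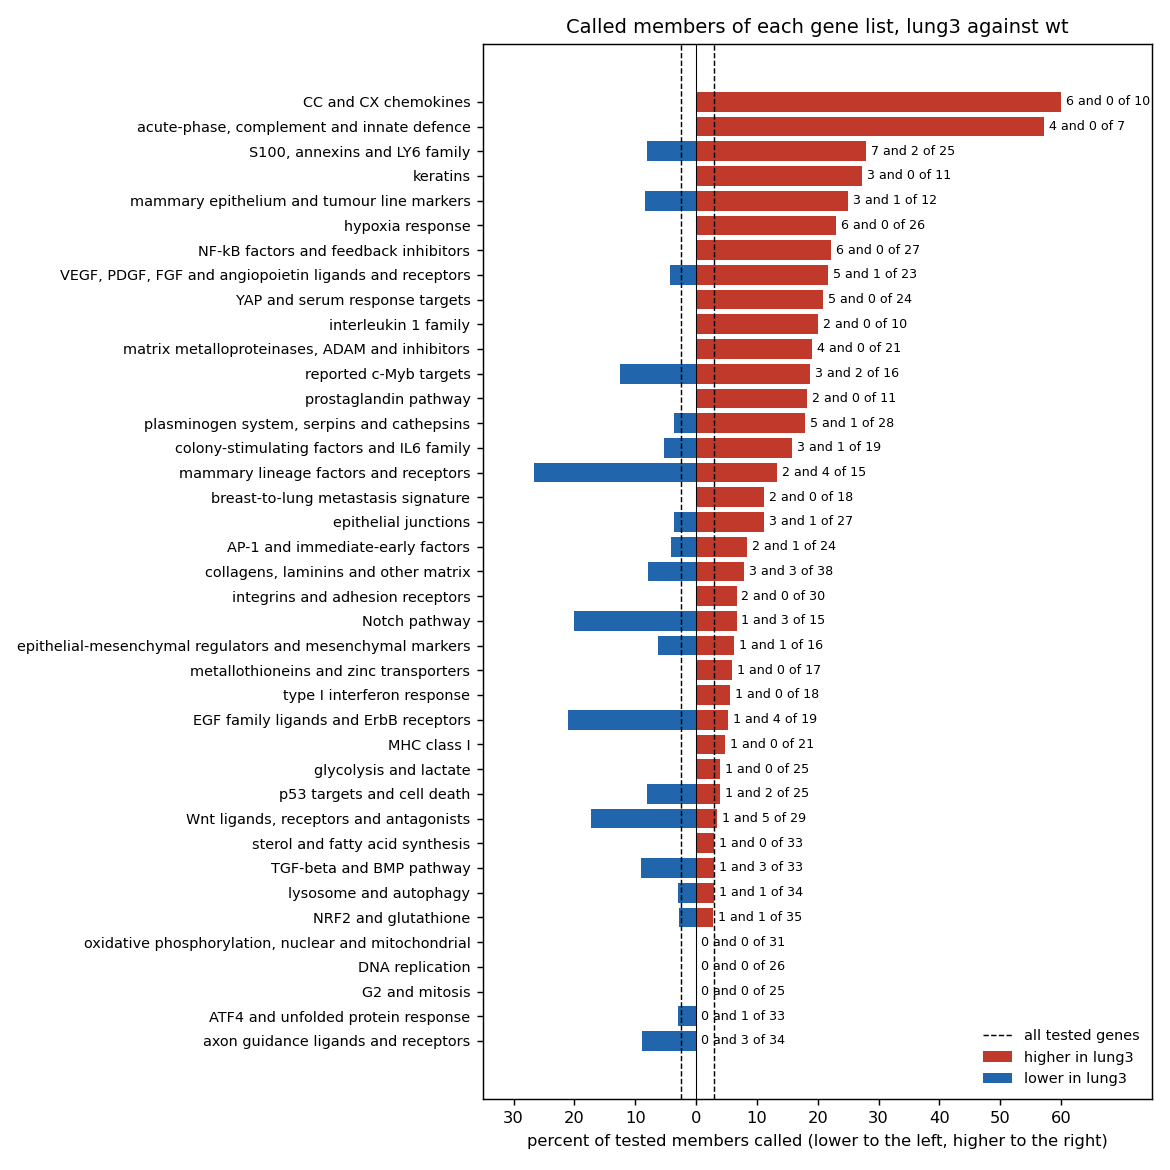
Percent of tested members called in each gene list with at least 7 tested members, higher in lung3 to the right and lower to the left; the text beside each bar gives the rises, the falls and the tested members, and dashed lines mark 2.91% higher and 2.44% lower over all genes. Chemokines (6 of 10) and innate defence genes (4 of 7) reach farthest right, and mammary lineage factors (4 of 15) farthest left.

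The genes with the largest falls included several of low level. Ube2ql1, a ubiquitin-conjugating enzyme-like gene, was at 6.91, 6.40 and 8.68 CPM in wt and at 0.655, 0.924 and 0.485 CPM in lung3 (-3.47, SE 0.24, adjusted p = 8.93e-06). Zfhx4, a zinc finger homeobox gene, was at 5.23, 5.54 and 2.30 CPM in wt and at 0.364, 0.116 and 0.277 CPM in lung3 (-3.98, SE 0.6). Both were separated between the groups. Pros1, protein S of the clotting system, fell by 2.39, Gsdme, a gasdermin that forms membrane pores, by 2.28, and Sox5, a transcription factor, by 2.12. Mgp, an inhibitor of calcification, fell by 2.28, or by 2.97 without lung3 replicate 3. Cyp24a1, the vitamin D hydroxylase, had 22 counts in wt and 0 in lung3, so it was at least 4.03-fold lower in lung3 against a floor of 3 counts over the group, and the exact 95% counting bound was 3.01-fold. Satb1, a chromatin organiser, had 26 counts and 0, at least 4.76-fold lower against that floor and 3.6-fold by the counting bound, but lost its call without wt replicate 1 or any lung3 library (adjusted p 0.0637 to 0.0756). Loxl3, a lysyl oxidase-like enzyme, fell from 18.4 to 26.3 CPM to 5.20 to 7.76 CPM (-1.80, SE 0.17), and its exons overlap those of Htra2. Among abundant genes Pex2, a peroxisome assembly factor, was at 156, 172 and 68.8 CPM in wt and at 56.2, 55.7 and 49.6 CPM in lung3 (-1.30, SE 0.24). Wt replicate 3 was the low library there. Dock11, a guanine nucleotide exchange factor, was among the largest rises, at 0.636, 1.12 and 1.20 CPM in wt and 23.7, 27.3 and 5.61 CPM in lung3 (4.23, SE 0.54). Prnd rose by 2.60, and its exons overlap those of Prn. Exons of Cyp24a1 overlap those of Pfdn4 on the other strand, as do those of Cxcl10 with Art3 and Il1a with Gm14023, and reads of such pairs may be shared.

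Cell division and respiration genes were not called: none of 25 G2 and mitosis genes, 26 DNA replication genes or 31 oxidative phosphorylation genes passed in edgeR. At an unadjusted p under 0.05, 2, 5 and 1 of them were lower and none higher. DESeq2 called 0, 2 and 1 of them lower, limma's voom called none, and the block called 2, 4 and 2 lower. Of 34 lysosome genes, 1 rose and 1 fell (5.88%, near the 5.36% of all genes called). The fall was that of Gpnmb, a lysosomal glycoprotein, from 15.9 to 24.5 CPM to 4.97 to 8.18 CPM (-1.67, SE 0.21). Myb, the gene overexpressed in the other arm of the study, was at 4.27, 4.96 and 5.75 CPM in wt and at 3.13, 2.77 and 2.22 CPM in lung3 (-0.89, SE 0.19, adjusted p = 0.0158). The groups did not overlap, and the call was lost when wt replicate 2 or lung3 replicate 2 or 3 was omitted (adjusted p 0.0535 to 0.0805). In the list of reported c-Myb targets, which counts Myb itself, 3 of 16 rose and 2 fell (31.2% called, against 5.36% of all genes). Myb was among the 2, and without wt replicate 1 none of the 16 rose.

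The libraries numbered 3 differed from the others of their group for many of the genes that rose most. Within lung3, chi-square per gene was 10.4 between replicates 1 and 2, 11.8 between 1 and 3 and 8.52 between 2 and 3. So lung3 replicate 3 was not the most distant lung3 library over all genes. Within wt it was 6.33 between replicates 1 and 2, 14 between 1 and 3 and 16.8 between 2 and 3. So wt replicate 3 was the most distant wt library. Among the 104 genes higher by at least 2-fold, wt replicate 3 was the highest wt library for 82, while lung3 replicate 3 was the lowest lung3 library for 48 and the highest for 46. It lay under 0.5 of the mean of the other lung3 libraries for 12 of the 104, among them Ccl2, Ccl20, Cxcl1, Cxcl5, Il1a, Lcn2 and Csf3, and over 1.5 times that mean for 21, among them Krt14, Krt17, Ly6e and Rsad2. With both replicates numbered 3 left out, 523 genes were called. The part of culture or library preparation in this was not tested.

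**Figure D4:**
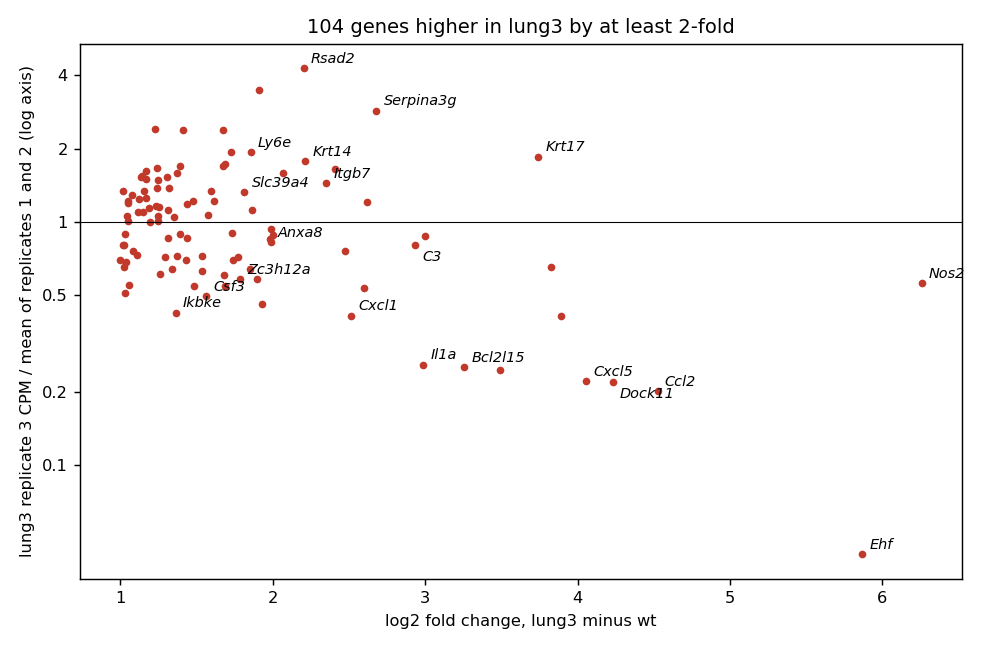
The 104 genes higher in lung3 by at least 2-fold, by log2 fold change (x axis) and by the CPM of lung3 replicate 3 over the mean of lung3 replicates 1 and 2 (y axis, log scale). Ccl2, Ccl20, Cxcl1, Cxcl5, Cxcl16 and Il1a lie below 1, and Cxcl10, Krt14, Krt17, Ly6e and Rsad2 lie above it.

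Called genes were unevenly spread over chromosomes. Chromosome 15 held 46 rises and 2 falls among 455 tested genes (10.5% called), and the median log2 change there was 0.18. All 3 lung3 libraries showed it, with medians of 0.159, 0.122 and 0.22 above the wt mean. This chromosome held 14% of the rises and 4.03% of the tested genes, among them Ndrg1, Itgb7, Ly6e and Slc39a4. Chromosome 8 had a median of -0.15, with 3 rises and 30 falls of 626, and chromosome 6 a median of -0.11, with 9 rises and 35 falls of 526. After subtraction of each chromosome's median in each library, 511 genes were called, and chromosome 15 gave 13 rises and 10 falls. Chromosome 8 then gave 7 rises and 9 falls, and chromosome 6 gave 14 rises and 20 falls. The number of DNA copies was not measured.

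**Figure D5:**
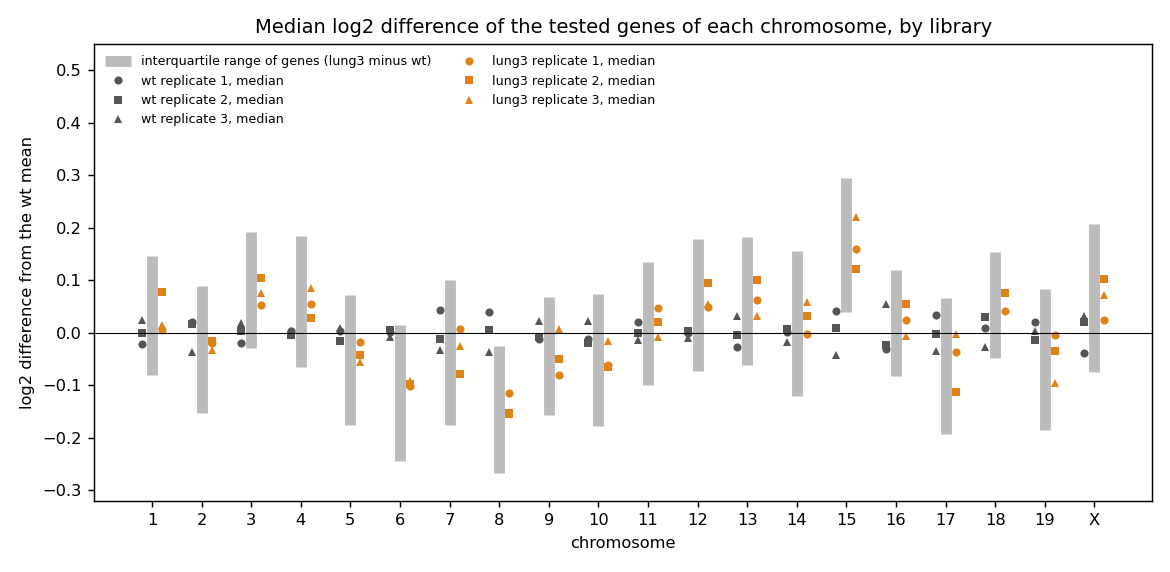
Median log2 difference from the wt mean over the tested genes of each chromosome, for each wt (grey) and lung3 (orange) library; grey bars span the interquartile range of genes for the lung3 minus wt change. All lung3 libraries lie above the wt libraries on chromosome 15 and below them on chromosomes 6 and 8.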

How the data were processed

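RNA-seq of 12 libraries in 4 groups of 3 was used, 6 of them (wt and lung3) for the comparison. The authors deposited raw read counts per gene, as whole numbers, under Ensembl gene identifiers. RNeasy Plus Mini columns gave the RNA and an Illumina TruSeq RNA kit the libraries, per the labels' protocols. STAR, edgeR and the build GRCm38 are named, with no role, in the submitters' processing notes. For the counting tool, its strand setting and its handling of shared reads, the state is: not given in the sources used here. Hence overlapping and antisense genes may share reads. All 2708 values of 10000 or more carried at most 4 significant digits. Of the columns, 0 were left unused. Symbols came from GENCODE (22570 of 22880 features).

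The test was edgeR 4.0.16 (R 4.3.3), quasi-likelihood, with TMM factors, filterByExpr and a term per group over 12 libraries. limma 3.58.1 voom and DESeq2 1.42.0 were alternatives. Each tool was tested on simulated data for this comparison (11200 genes, 11183 with the block). Changed genes were drawn above 2 CPM and libraries were independent, so lower levels and paired libraries were not covered. In edgeR the share recovered was 70.1% at 1.5-fold, 95.5% at 2-fold and 100% at 4-fold, and 4.32% of its calls were false. The block recovered 52.2%, 94% and 100%, with 5.75% of calls false. False calls were 7.61% in DESeq2 and 4.35% in voom. A smaller depth in lung3 limits precision, and counting intervals cover counting error only. Deviations from group means correlated by 0.329, 0.294 and 0.309 between libraries of the same number and by -0.212 to -0.0930 between others. Deviations within a group cancel out, so the negative values are tied to the positive ones. No label states a shared batch, and whether the numbers mark one was not tested. Chromosome medians used log2(CPM + 0.5). Fewer than 80% of the genes in each set had a promoter in the RefSeq table, so a comparison of motif shares between sets was void. Named genes were the 20 largest rises and falls at an average log2 CPM of at least 1 without overlap, the 6 largest each way at 6 or more, the 10 smallest p, up to 5 called members per list, up to 5 called genes each way with at most 3 counts in a group, Myb, and uncalled partners of called members. Cxcl16, Plat, Angptl2, Ccl5, Cx3cl1, Csf2, Lcp1, Cd74, Pdgfra, Cxcr4, Cdh1, Cdh2, Yap1, Hif1a, Slc2a1, Mmp9, Fn1, Rel, Nfkbib and Tnip2 were also named, and were chosen after their values were seen. Members and lists were chosen with earlier results of these data known. Some genes that met this rule are not reported here.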

Additional observations from a re-analysis of the deposited data

How the results depend on the processing

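The main counts were 605 calls, 329 higher, 276 lower and 164 of at least 2-fold. With the replicate block on 6 libraries they were 1985, 961 and 1024, and all 140 of the 146 called named genes that were tested there kept their call. With the block inside 12 libraries 805 genes were called, 410 higher and 395 lower. Of the 146, 145 kept their call there, and Cxcr3 did not. Uncalled genes that the block on 6 libraries brought to a call are named as such where they appear. No other call of a gene the report names was changed there. DESeq2 gave 919 calls, of which 428 were lower. A test against a 2-fold minimum (glmTreat) called 18 genes. Leaving out single libraries gave 237 to 688 calls, 134 to 393 higher, 103 to 295 lower and 100 to 236 of at least 2-fold. Of the named genes, 77 were called without each single library in turn. In every alternative 139 had a value, of which 73 were called in all, and no direction reversed. RLE factors gave 607 calls, no filter 727, a fit of 6 libraries 649, voom 617 and chromosome centring 511. With chromosome centring 456 of the 605 calls were kept, and 13 of the named genes lost their call. Leaving out both replicates numbered 3, an alternative chosen after seeing the data, gave 523. The cause of these differences was not tested. Depth in lung3 was 8912989 to 14689339 counts, which limits calls of small changes and of genes with few counts.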
